A study of Homo sapiens with 12 samples.

Results

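The comparison described is that of dox-plus with dox-minus LHX2 cells at day 4 in H9, a human embryonic stem cell line. The arrays were chosen by their labels: 4 of the 12 arrays of the series carry them, 2 for each state. Dox-plus day 4 cells had received doxycycline for 3 days and were collected 1 day after the treatment; dox-minus day 4 cells carry the same LHX2 label and had received none. The other arrays, used here only for side values, are dox-plus and dox-minus cells at day 16, which is 13 days after the treatment, and cells that carried the hairpin shLHX2, against LHX2, or its luciferase control shLuc and had gone through 12 days of neural induction. These groups also hold 2 arrays each, and the series text calls all samples biological duplicates. The series text names GFP as the control of the overexpression, and the labels of these arrays name only the presence or absence of doxycycline, so an effect of the drug and an effect of LHX2 cannot be told apart. The sources used here do not give the clone, the construct's promoter or the passage.

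LHX2 is a LIM-homeodomain transcription factor. It binds TAATTA-like sites through its homeodomain and works with LIM cofactors, and it is known for its part in specifying the eye field and the cortex in the early forebrain. Cells of the H9 line hold their pluripotent state under FGF and Nodal or activin signalling, and inhibition of Nodal signalling favours neural fate. Doxycycline, a tetracycline antibiotic, serves as the switch of inducible transgenes.

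Across the 12 arrays, 19050 to 20489 of 47227 probes were detected, and the 4 arrays of day 4 had 19050 to 19296. Levels are background-corrected, quantile-normalised bead signals on the log2 scale, and a gene is represented by its brightest kept probe. Embryonic stem cell markers fitted the labelled cell type: all 8 of the 8 tested markers were detected on each day 4 array, POU5F1, NANOG and SOX2 among them. The log2 of their summed signal was 15.42 and 15.59 in dox-plus cells, against 15.59 and 15.63 in dox-minus cells. PAX6, the factor that marks human neuroectoderm, was detected on no day 4 array. Across genes (not independent replicates), Pearson's r was 0.979 between the dox-plus arrays and 0.99 between the dox-minus arrays, and 0.972 to 0.982 between an array of one state and an array of the other. The dox-plus arrays therefore differed from each other about as much as from the dox-minus arrays.

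The gene under control was close to the detection limit. LHX2 had log2 levels of 6.05 and 5.45 in dox-plus cells, against 5.23 and 4.87 in dox-minus cells. Detection passed on 1 of the 2 dox-plus arrays but on 0 of the 2 dox-minus ones. The groups did not overlap, as in 40.2% of all genes tested. The log2 fold change, dox-plus over dox-minus, was 0.70 ± 0.27 (SE, n = 2 each), with an adjusted p of 0.272 in limma, and the bound on the increase in dox-plus cells was at least 1.05-fold. The only LHX2 probe lies near the 3′ end of the transcript, and the sources used here do not say whether the construct holds that stretch, so the probe does not check the labels. In the day 16 cultures the same probe read 12.79 and 13.04 in dox-plus cells, against 12.19 and 11.92 in dox-minus cells.

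Of 15649 genes tested, 300 (1.92%) were called at an adjusted p under 0.05. In dox-plus cells 207 of them (1.32%) were higher and 93 (0.594%) were lower. The groups did not overlap in 6296 genes (40.2%), with dox-plus higher in 3203 (20.5%) and lower in 3093 (19.8%), so a lack of overlap between 2 and 2 arrays is common here. The number of calls fell when an array was left out, which leaves 1 array in its group: 93 and 142 genes were called without dox-plus array 1 and array 2, and 30 and 28 without dox-minus array 1 and array 2. All fold changes below are log2 values, dox-plus over dox-minus, with the standard error and n = 2 arrays a group.

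**Figure D1:**
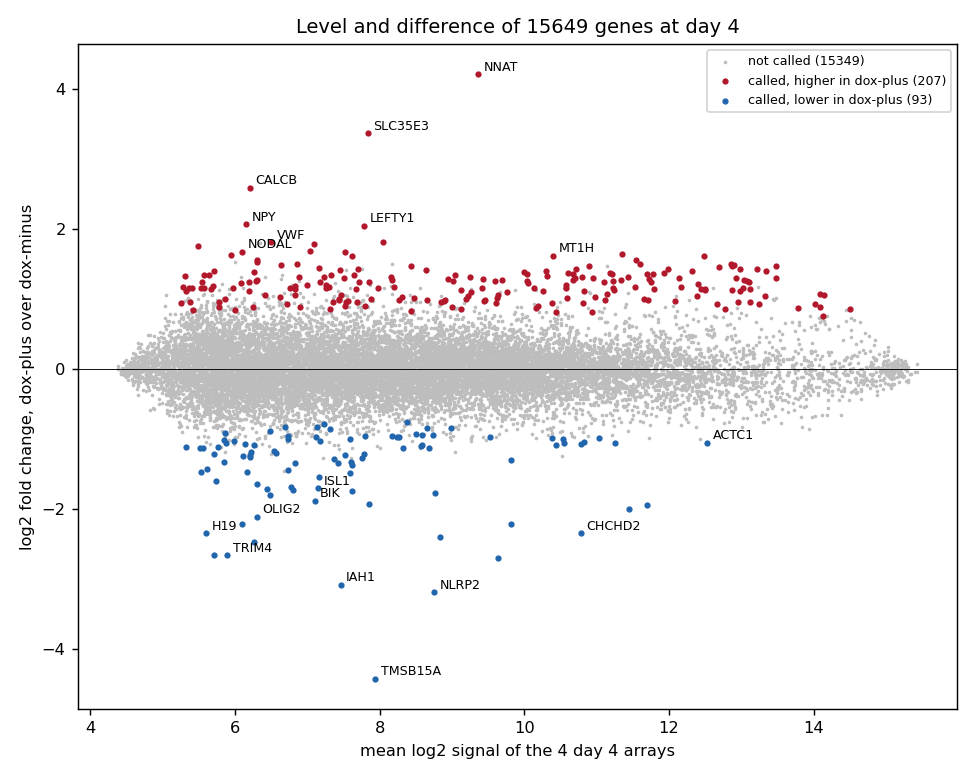
The mean log2 signal of the 4 day 4 arrays (x axis) is plotted against the log2 fold change, dox-plus over dox-minus (y axis), with 1 point for each of 15649 genes. Red points are the 207 genes called higher and blue points the 93 called lower in dox-plus cells; NNAT at 4.21 and TMSB15A at -4.42 stand at the ends.

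TMSB15A, NLRP2 and IAH1 had the largest decreases among the called genes. TMSB15A, which encodes a beta-thymosin that binds actin monomers, had 5.85 and 5.60 in dox-plus cells, against 10.31 and 9.99 in dox-minus cells. Both dox-plus arrays were low and far from the dox-minus arrays, and the fold change was -4.42 ± 0.25 (adjusted p = 9.32e-06). IAH1, annotated as an isoamyl acetate-hydrolysing esterase homologue, had 5.70 and 6.14 in dox-plus cells, against 8.75 and 9.26 in dox-minus cells, a change of -3.09 ± 0.22 (adjusted p = 2.87e-05). NLRP2, an NLR family member expressed in oocytes and early embryos, had 6.75 and 7.57 in dox-plus cells, against 10.20 and 10.50 in dox-minus cells, and its fold change was -3.19 ± 0.27 (adjusted p = 0.000152). In these 3 genes all dox-plus arrays lay below all dox-minus arrays, as they did in 19.8% of all genes tested.

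TRIM4, a RING-type ubiquitin ligase, was detected on no dox-plus array, with 4.52 and 4.60, and on both dox-minus arrays, with 7.44 and 7.02. It was at least 3.01-fold lower in dox-plus cells (log2 fold change -2.66 ± 0.19, adjusted p = 2.9e-05), and its other kept probe gave -0.63. ZNF558, a KRAB zinc finger gene, had 4.36 and 4.40 in dox-plus cells, none detected, against 6.90 and 7.18 in dox-minus cells, at least 2.64-fold lower (adjusted p = 0.000216). H19, the imprinted long non-coding RNA expressed from the maternal allele next to IGF2, had 4.43 and 4.42 in dox-plus cells, none detected, against 6.90 and 6.65 in dox-minus cells. It was at least 2.20-fold lower (adjusted p = 0.000998). IGF2 itself was not called, at -0.47.

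Other genes went the opposite way. NNAT, the imprinted gene of neuronatin, a membrane proteolipid of developing brain, had 11.88 and 11.06 in dox-plus cells, against 7.39 and 7.13 in dox-minus cells. The dox-plus arrays were higher by 4.21 ± 0.27 (adjusted p = 1.19e-05), and a further NNAT probe gave 3.51. SLC35E3, of the nucleotide sugar transporter family, had 9.51 and 9.52 in dox-plus cells, against 6.13 and 6.17 in dox-minus cells, a difference of 3.37 ± 0.24 (adjusted p = 2.87e-05). The replicates of SLC35E3 lay close together in both groups, and the groups were far apart.

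CHCHD2, a mitochondrial protein that also acts on transcription, read 9.83 and 9.38 in dox-plus cells, against 12.12 and 11.79 in dox-minus cells. Its fold change was -2.35 ± 0.23 (adjusted p = 0.000342). Probes that the files assign to its pseudogenes moved with it: CHCHD2P9 at -2.71, CHCHD2P2 at -2.40, CHCHD2P8 at -1.996 and CHCHD2P6 at -1.94. Such probes may share target sequence with the parent gene, so these 5 entries are reported as uncertain and may be 1 change. The list of on-off genes of stem cell cultures, to which most of the genes above belong, had 2 members called higher and 7 lower of 19 tested, with a median of -0.35, against -0.01 over all genes. That list was drawn up with earlier results of these data known and is not independent evidence. Of 20 imprinted genes tested, NNAT was called higher, H19 and NLRP2 were called lower, and 17 were not called. Among all genes tested, 1.32% were called higher and 0.594% lower.

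At day 16 the same genes differed in the other direction. TMSB15A had a day 16 log2 fold change of 4.78, H19 of 6.58, ZNF558 of 3.91, TRIM4 of 3.61, IAH1 of 3.46 and NLRP2 of 1.65, while NNAT had -1.72 and SLC35E3 -1.83, each with an adjusted p under 0.05. The day 4 and day 16 contrasts share no arrays, and the difference of the effects was called for all 8 genes. H19, for example, read 11.02 and 11.44 in dox-plus day 16 cells and 4.71 and 4.60 in dox-minus day 16 cells. TRIM4 read 8.33 and 8.09 in dox-plus day 16 cells, against 4.57 and 4.63 in dox-minus day 16 cells. For H19, ZNF558, TRIM4 and IAH1 the dox-plus day 4 and the dox-minus day 16 arrays were the low ones, and the dox-minus day 4, dox-plus day 16, shLHX2 and shLuc arrays were all higher. Whether cultures of different origin, passage or label contribute to this pattern was not tested.

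**Figure D2:**
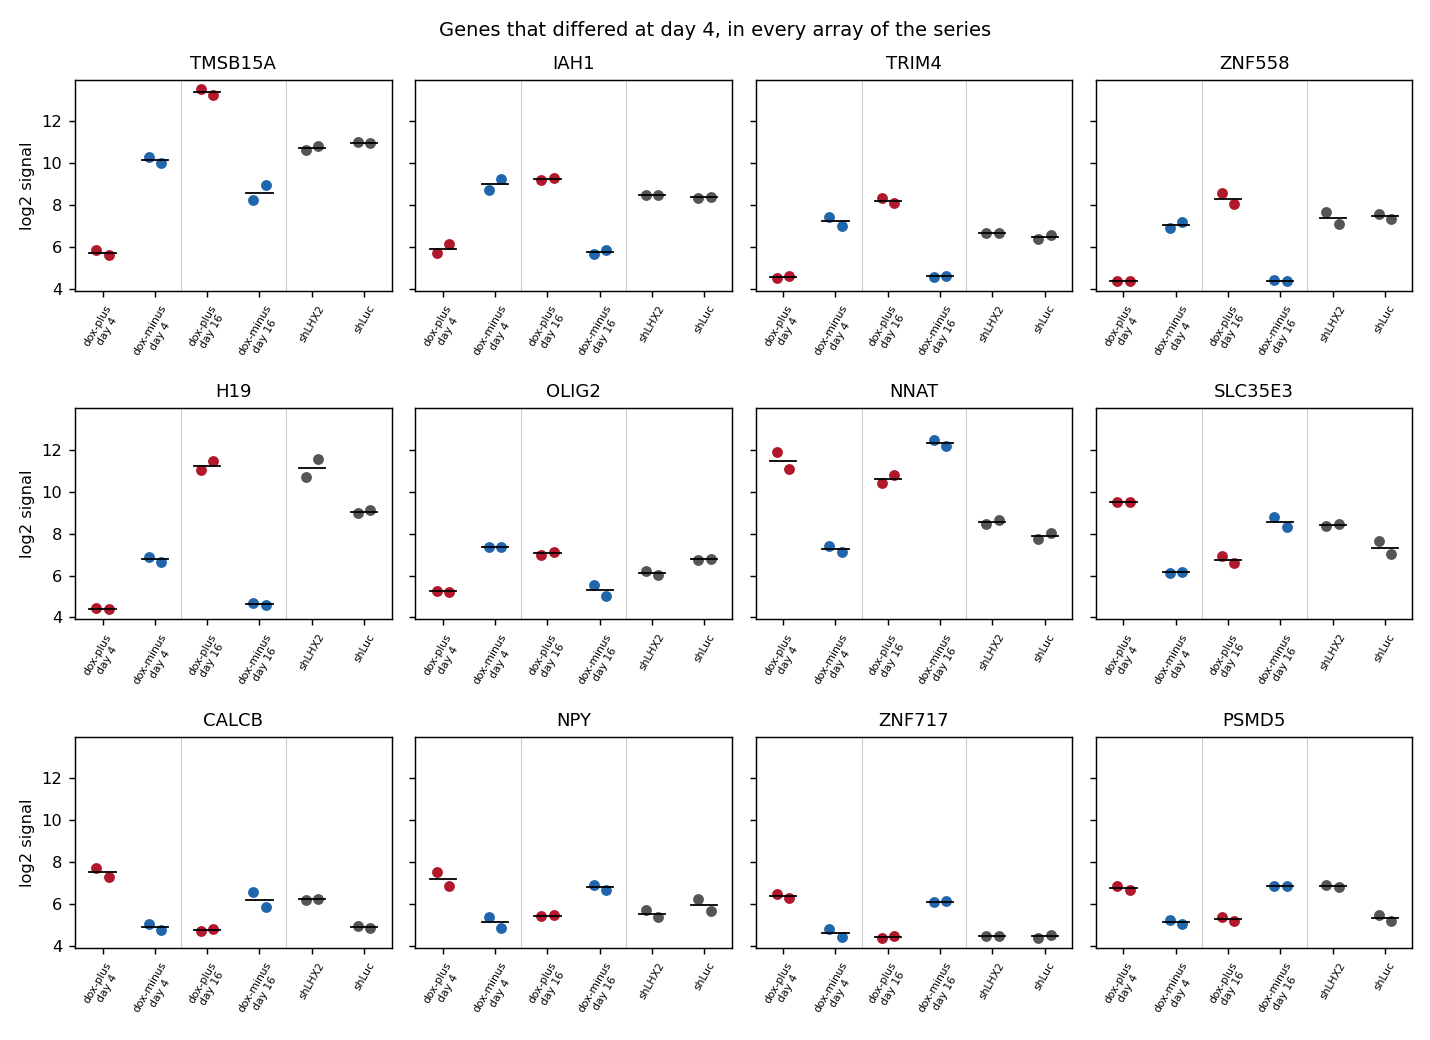
Each panel shows 1 gene and each point the log2 signal of 1 array, with a line at the mean of the 2 arrays; groups run along the x axis as dox-plus and dox-minus at day 4, dox-plus and dox-minus at day 16, shLHX2 and shLuc. IAH1, TRIM4, ZNF558 and H19 are low in dox-plus day 4 and dox-minus day 16 cells and high elsewhere, and NNAT, SLC35E3, CALCB and NPY are higher in dox-plus cells at day 4 and lower in them at day 16.

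The promoters of 4 of the genes that were lower in dox-plus cells are shown for their CG sites, the sites of DNA methylation in mammals, which these arrays do not measure; of the 4, H19 is imprinted. The sequences are from RefSeq, build GRCh38.p14, a window of 300 bases over the gene's start, on the gene's strand, 5′ to 3′, with CG sites in capitals. They lie at chrX:102516690-102516989 (TMSB15A, minus strand), chr11:2001217-2001516 (H19, minus strand), chr19:8832255-8832554 (ZNF558, minus strand) and chr2:9474301-9474600 (IAH1, plus strand).
TMSB15A: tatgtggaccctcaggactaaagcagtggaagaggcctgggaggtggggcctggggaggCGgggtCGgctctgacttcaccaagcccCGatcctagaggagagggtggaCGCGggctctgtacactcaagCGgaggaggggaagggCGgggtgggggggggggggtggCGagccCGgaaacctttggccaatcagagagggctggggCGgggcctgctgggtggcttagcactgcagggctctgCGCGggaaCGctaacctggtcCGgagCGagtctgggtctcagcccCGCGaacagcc
H19: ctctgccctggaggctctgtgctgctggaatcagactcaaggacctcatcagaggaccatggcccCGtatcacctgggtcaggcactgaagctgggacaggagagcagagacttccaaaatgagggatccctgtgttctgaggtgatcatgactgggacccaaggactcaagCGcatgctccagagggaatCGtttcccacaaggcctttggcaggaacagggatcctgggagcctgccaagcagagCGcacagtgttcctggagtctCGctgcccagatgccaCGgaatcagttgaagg
ZNF558: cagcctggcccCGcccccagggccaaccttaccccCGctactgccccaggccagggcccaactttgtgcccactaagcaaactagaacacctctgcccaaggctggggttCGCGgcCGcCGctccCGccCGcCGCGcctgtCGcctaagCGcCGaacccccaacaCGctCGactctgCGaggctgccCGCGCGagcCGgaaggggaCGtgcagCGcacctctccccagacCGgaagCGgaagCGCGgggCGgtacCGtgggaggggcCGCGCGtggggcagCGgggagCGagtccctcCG
IAH1: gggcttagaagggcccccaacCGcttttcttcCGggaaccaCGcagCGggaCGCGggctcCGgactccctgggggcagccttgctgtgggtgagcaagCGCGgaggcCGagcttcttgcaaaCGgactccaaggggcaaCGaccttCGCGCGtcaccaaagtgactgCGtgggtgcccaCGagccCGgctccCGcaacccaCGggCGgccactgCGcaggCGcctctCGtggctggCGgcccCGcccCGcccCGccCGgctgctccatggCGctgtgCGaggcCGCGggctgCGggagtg
ZNF558 and IAH1 each hold 34 CG sites, more than 84.7% of the 27305 promoters of the same length, TMSB15A holds 17 and H19 holds 6. Of 27305 promoters the median count was 14. It was 22 over the 122 matched genes called higher and 23.5 over the 58 called lower. The 27305 promoters also include genes that were not tested here. Neither these medians nor the motif shares below therefore compare called genes with other tested genes. The motif TAATTA, which reads the same on both strands, was in 3 of the 122 promoters of genes called higher (2.46%) and in 1 of the 58 of genes called lower (1.72%), against 4.98% of all promoters. CER1, among the genes called higher, holds it once, at chr9:14722684-14722983 (minus strand), in capitals below.
CER1: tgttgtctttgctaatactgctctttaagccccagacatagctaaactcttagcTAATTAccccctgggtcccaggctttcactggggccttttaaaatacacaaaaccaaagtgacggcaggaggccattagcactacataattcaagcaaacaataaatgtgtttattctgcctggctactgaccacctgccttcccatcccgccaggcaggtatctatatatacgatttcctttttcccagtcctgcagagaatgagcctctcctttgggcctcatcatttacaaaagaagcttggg
A match is a description of these letters only.

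The ligand NODAL and 3 Nodal antagonists were higher in dox-plus cells. NODAL, a TGF-beta family ligand that sustains pluripotency and induces mesendoderm, had 6.47 and 7.41 in dox-plus cells, both detected, against 5.58 and 4.95 in dox-minus cells, none detected. It was at least 2.41-fold higher (log2 fold change 1.68 ± 0.30, adjusted p = 0.0172). LEFTY1, a secreted Nodal antagonist and Nodal target, had 7.94 and 9.68 in dox-plus cells, against 6.85 and 6.68 in dox-minus cells, a difference of 2.05 ± 0.40 (adjusted p = 0.0255). Dox-plus array 2 was the high one, and dox-plus array 1 also lay above both dox-minus arrays.

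LEFTY2, its close paralog, had 8.18 and 9.72 in dox-plus cells, against 7.25 and 7.02 in dox-minus cells (1.82 ± 0.38, adjusted p = 0.0333); the paralogs may share probe sequence and are reported as uncertain. CER1, the secreted Nodal, BMP and WNT inhibitor Cerberus, had 7.95 and 8.73 in dox-plus cells, against 6.94 and 7.25 in dox-minus cells. Its fold change was 1.24 ± 0.25 (adjusted p = 0.0301), and its other kept probe gave 1.59. The groups did not overlap for any of the 4 genes, as for 40.2% of all genes tested, and in each dox-plus array 2 was the higher. Among the antagonists and targets 3 of 9 tested were called higher and 0 lower, with a median of 0.30. Among ligands and receptors 1 of 6 was called higher, with a median of 0.44. Over all genes tested, 1.32% were called higher. The remaining targets tested, among them FST at -0.43, EOMES at -0.39 and TBXT at 0.03, were not called.

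An array left out leaves 1 array in its group, and calls can be lost to the smaller design alone. Without dox-minus array 1 or array 2 none of the 4 was called, with adjusted p from 0.0586 for NODAL to 0.244 for LEFTY2. The fold changes without dox-minus array 1 and array 2 were 1.99 and 1.36 for NODAL, 2.13 and 1.97 for LEFTY1, 1.94 and 1.70 for LEFTY2, and 1.09 and 1.40 for CER1. Without dox-plus array 2, LEFTY1 kept an adjusted p of 0.0326 at a fold change of 1.18, while NODAL had 0.074, LEFTY2 0.0854 and CER1 0.115. The difference from day 16 was called for each. The day 16 fold changes were -0.43 for NODAL, -0.57 for LEFTY1, -0.61 for LEFTY2 and -0.35 for CER1, and none of these was called. At day 16 NODAL and LEFTY1 were detected on no array and CER1 on 1 dox-minus array, while LEFTY2 was detected on all. For NODAL, LEFTY1 and CER1 the called difference therefore mostly restates the day 4 difference. With no filter on dim probes, which enlarges the number of tests, the adjusted p at day 4 was 0.0782 for LEFTY1, 0.0956 for LEFTY2 and 0.0617 for CER1. When only the 4 day 4 arrays were fitted in limma, none of the 4 genes was called. The adjusted p was then 0.0811 for NODAL, 0.105 for LEFTY1, 0.114 for LEFTY2 and 0.123 for CER1.

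Few genes of the other signalling lists were called. BMP2, a BMP ligand, was higher by 0.85 ± 0.19 (adjusted p = 0.0433). SFRP2, a secreted WNT antagonist, read 11.64 and 11.56 in dox-plus cells, against 10.51 and 10.74 in dox-minus cells (0.98 ± 0.20, adjusted p = 0.0302). FGF13, an intracellular FGF homologous factor on chromosome X, was higher by 1.03 ± 0.19 (adjusted p = 0.0184), and its other kept probe gave 0.63. IL17RD, a feedback inhibitor of FGF signalling, was higher by 1.07 ± 0.24 (adjusted p = 0.0428), but its other kept probe gave -0.79. The calls of these 4 genes were lost when any 1 of the 4 day 4 arrays was left out. No member was called among 12 BMP targets, 14 WNT ligands and receptors, 8 WNT targets and 16 Notch pathway genes; the largest changes were TFAP2A at -1.03, FZD7 at 0.73, LEF1 at -0.85 and HEY2 at 0.89.

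The transcription factors NKX3-2, NKX2-5, OLIG2, ISL1, TBX1 and DLX5 were lower in dox-plus cells, and ONECUT1 and CDX4 were higher. NKX3-2, a homeobox factor of the sclerotome and the skeleton, was detected on no dox-plus array, with 5.16 and 4.90, and on both dox-minus arrays, with 7.73 and 7.27. It was at least 3.63-fold lower (adjusted p = 0.000265). NKX2-5, a cardiac homeobox factor, had 5.44 and 4.55 in dox-plus cells, none detected, against 7.17 and 7.24 in dox-minus cells, at least 2.97-fold lower (adjusted p = 0.00547). OLIG2, a bHLH factor of motor neuron and oligodendrocyte progenitors, had 5.28 and 5.22 in dox-plus cells, none detected, against 7.34 and 7.38 in dox-minus cells, at least 3.30-fold lower (adjusted p = 0.000265). The replicates lay close together in OLIG2 and apart in the dox-plus arrays of NKX2-5.

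ISL1, a LIM-homeodomain factor of motor neurons and cardiac progenitors, had 6.58 and 6.01 in dox-plus cells, against 8.08 and 7.91 in dox-minus cells (-1.70 ± 0.21, adjusted p = 0.00253). It was the only 1 of 16 tested LIM-homeobox genes and cofactors that was called; the median of that list was -0.06. TBX1, a T-box factor of pharyngeal mesoderm, had 6.12 and 5.05 in dox-plus cells, against 7.36 and 7.26 in dox-minus cells (-1.72 ± 0.35, adjusted p = 0.0302), and its other kept probe gave -1.40. DLX5, a homeobox factor of the neural border and the branchial arches, was lower by 1.23 on the log2 scale (adjusted p = 0.0432). Among 18 tested mesendoderm and mesoderm genes 3 were called lower and 0 higher, with a median of -0.06. Among 16 tested neuron and proneural genes, ISL1 was called lower and ONECUT1 higher, with a median of -0.23. Of all genes tested, 0.594% were called lower and 1.32% higher, and the median was -0.01.

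ONECUT1, a cut-homeobox factor of liver, pancreas and early neurons, and CDX4, a caudal factor of the posterior body axis, were detected on both dox-plus and on neither dox-minus array. ONECUT1 had 6.13 and 6.51 in dox-plus cells, against 5.22 and 4.73 in dox-minus cells, at least 1.57-fold higher (adjusted p = 0.0112). CDX4 had 6.66 and 6.17 in dox-plus cells, against 5.19 and 4.83 in dox-minus cells, at least 1.68-fold higher (adjusted p = 0.0155). Of these factors, NKX3-2 and OLIG2 were called whichever day 4 array was left out. NKX2-5 was not called without dox-minus array 1 or array 2, ISL1 not without dox-minus array 1, and ONECUT1 not without dox-plus array 2 or dox-minus array 2. TBX1 was called only without dox-plus array 1 and CDX4 only without dox-plus array 2, while DLX5 was called in none of these 4 fits.

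**Figure D3:**
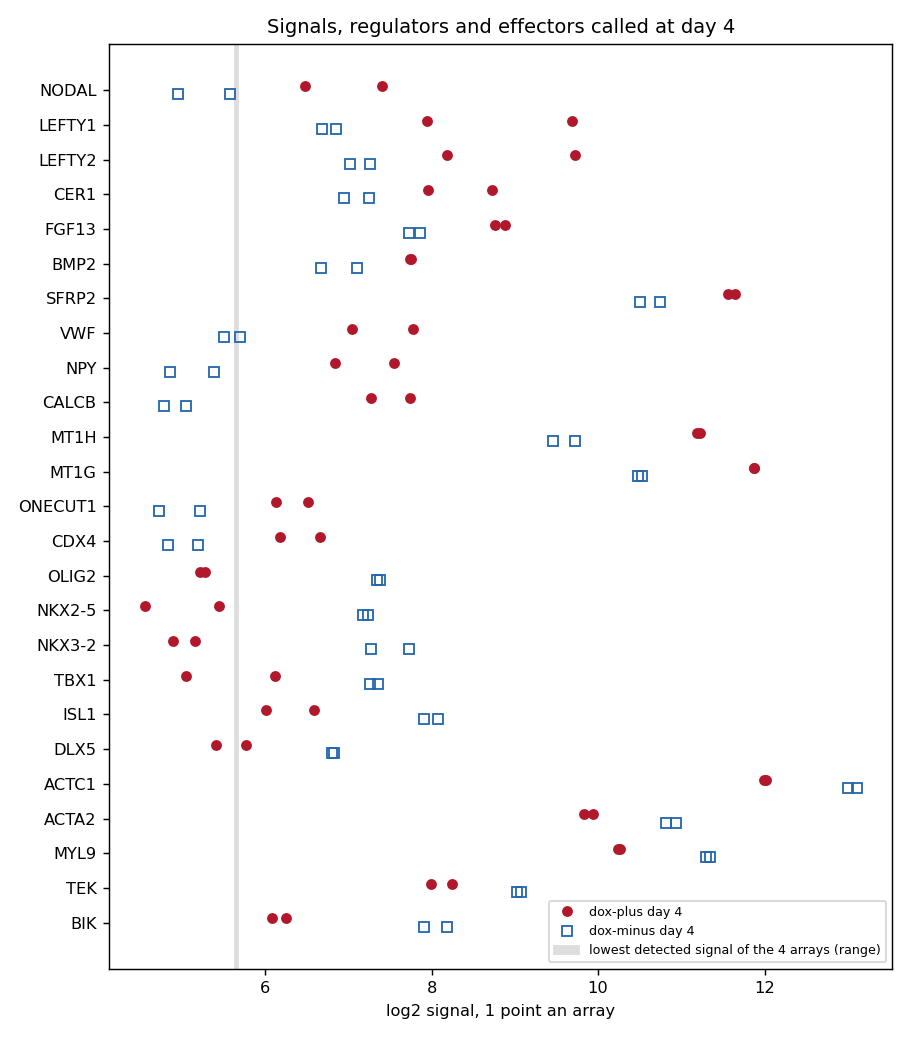
Each row is a gene called at day 4; filled red circles are the 2 dox-plus arrays and open blue squares the 2 dox-minus arrays, on the log2 signal axis. The grey band is the range of the lowest detected signal over the 4 arrays, 5.64 to 5.67; OLIG2, NKX2-5 and NKX3-2 lie left of it in dox-plus cells, and NODAL, NPY, CALCB, ONECUT1 and CDX4 in dox-minus cells.

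The contractile genes MYL9, ACTC1 and ACTA2 were lower in dox-plus cells. MYL9, a smooth muscle myosin light chain, had 10.26 and 10.24 in dox-plus cells, against 11.30 and 11.35 in dox-minus cells (-1.08 ± 0.21, adjusted p = 0.0255). Its other kept probe gave -0.53. ACTC1, cardiac alpha-actin, had 12.01 and 11.99 in dox-plus cells, against 13.00 and 13.11 in dox-minus cells (-1.05 ± 0.17, adjusted p = 0.0128). ACTA2, smooth muscle alpha-actin, was lower by 0.99 on the log2 scale (adjusted p = 0.0208). These 3 of 16 tested contractile genes were called lower and 0 higher, against 0.594% called lower over all genes. The median of the list was -0.41, against -0.01 over all genes. In 11 of the 16 all dox-plus arrays lay below all dox-minus arrays, as in 19.8% of all genes tested. The actin genes are near-identical in coding sequence and are reported as uncertain. All 3 were also called lower at day 16, with fold changes of -0.79 for MYL9, -2.11 for ACTC1 and -0.67 for ACTA2. Each of these 3 calls was lost when any 1 of the day 4 arrays was left out, and with median scaling the adjusted p was 0.0546 for ACTA2 and 0.0602 for MYL9.

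Genes of secreted peptides and of endothelium also differed. CALCB, the beta form of calcitonin gene-related peptide, had 7.74 and 7.27 in dox-plus cells, against 5.05 and 4.78 in dox-minus cells, where it was not detected. It was at least 3.56-fold higher (adjusted p = 0.000265). NPY, neuropeptide Y, had 7.54 and 6.84 in dox-plus cells, against 5.39 and 4.86 in dox-minus cells, not detected there, and was at least 2.87-fold higher (adjusted p = 0.00499). These were the 2 called of 16 neuropeptide genes tested, whose median was 0.25. Of all genes tested, 1.32% were called higher, and the median was -0.01.

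VWF, von Willebrand factor, had 7.78 and 7.05 in dox-plus cells, against 5.70 and 5.50 in dox-minus cells (1.81 ± 0.28, adjusted p = 0.0096). TEK, the angiopoietin receptor, had 8.24 and 7.99 in dox-plus cells, against 9.08 and 9.03 in dox-minus cells (-0.94 ± 0.19, adjusted p = 0.033). The 7 endothelial genes tested thus held 1 call in each direction, and KDR, at 0.29, was not called. Among all genes tested, 1.32% were called higher and 0.594% lower. CALCB was called whichever day 4 array was left out, NPY in all such fits but that without dox-minus array 2, VWF only in that without dox-plus array 2, and TEK in none.

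The metallothioneins MT1H and MT1G, small cysteine-rich proteins that bind zinc and copper and are induced by metals, were higher in dox-plus cells. MT1H had 11.19 and 11.22 in dox-plus cells, against 9.46 and 9.72 in dox-minus cells (1.62 ± 0.20, adjusted p = 0.00191). Its other kept probe, detected on 1 day 4 array, gave 0.59. MT1G had 11.87 and 11.87 in dox-plus cells, against 10.53 and 10.48 in dox-minus cells (1.37 ± 0.20, adjusted p = 0.0063). In the list of metallothioneins, which also holds the zinc exporter SLC30A1, these 2 of 9 tested genes were called higher and 0 lower. Of all genes tested, 1.32% were called higher and 0.594% lower. The fold changes of the list ran from 0.18 to 1.62, with a median of 0.76, against -0.01 over all genes. MT1H was called whichever day 4 array was left out, and MT1G not without dox-minus array 1 or array 2. The MT1 genes are near-identical, so their probes may share signal and they are reported as uncertain. At day 16 both had the opposite sign, -0.998 for MT1H and -1.42 for MT1G.

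Single members of further lists were called. CLOCK, a bHLH-PAS factor of the circadian clock, was higher by 1.79 ± 0.31 (adjusted p = 0.016), the only call among 15 clock genes. Among all genes tested, 1.92% were called. ZMAT3, a p53 target, was higher by 1.48 ± 0.34 (adjusted p = 0.0488), while its other kept probe gave 0.05. COL4A5, a basement membrane collagen on chromosome X, was higher by 0.91 ± 0.18 (adjusted p = 0.0273). BIK, a pro-apoptotic BH3-only protein, had 6.25 and 6.08 in dox-plus cells, against 8.19 and 7.90 in dox-minus cells (-1.88 ± 0.27, adjusted p = 0.0063), and was lower at day 16 as well, by 1.45 on the log2 scale. The calls of CLOCK, ZMAT3 and COL4A5 were lost without any 1 of the day 4 arrays, and that of BIK without dox-minus array 1 or array 2.

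Core pluripotency, neural progenitor and forebrain genes held no call. Of 20 core pluripotency genes tested none passed, with a median of -0.06, and none of 18 neural progenitor genes, 19 forebrain and eye field genes or 10 endoderm genes did. The largest changes of these last 3 lists were POU3F1 at 1.01, OTX1 at 1.26 and FOXA2 at 1.06. PAX6 had 4.75 and 4.70 in dox-plus cells, against 4.58 and 4.50 in dox-minus cells, with no array detected. No call was made in the lists of HOX genes (7 tested), DNA methylation (9), cell cycle (21), amino acid response (20), oxidative phosphorylation (20), mitochondrial ribosome (19), glycolysis and hypoxia (20), cholesterol and fatty acid synthesis (22, median 0.28), interferon response (13) and immediate early genes (16). The largest changes there were 0.70 for HOXB6, -1.09 for APOBEC3B, 0.78 for RRM2, 0.70 for DDIT3, -0.65 for COX7B, -0.61 for MRPL3, -0.70 for EGLN3, 0.78 for FADS2, -0.79 for IFI6 and -1.24 for EGR1. With 2 arrays a group, a change of this size that was not called is not shown to be absent.

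Markers of other cell types were checked on the same arrays. Of 8 mesenchyme markers 4 were detected on all day 4 arrays and COL3A1, DCN, LUM and POSTN on none. The log2 of the summed signal of the 8 was 13.17 and 12.66 in dox-plus cells, against 12.83 and 12.79 in dox-minus cells. For trophoblast or surface ectoderm markers this value was 8.93 and 8.40 in dox-plus cells, against 9.66 and 9.18 in dox-minus cells. Most of that signal was TFAP2A, with 8.31 and 7.58 against 9.26 and 8.68, which was not called. TP63 and CGA were detected on no day 4 array. The sums of neural progenitor, neuron and endoderm markers overlapped between the groups, and none of these markers was called. Of 5 endothelium markers 3 were tested: VWF was called higher, TEK lower and KDR not. PECAM1 and CDH5 were not among the genes tested. The log2 of the sum of the 3 was 9.225 and 8.916 in dox-plus cells, against 9.344 and 9.352 in dox-minus cells. In bulk RNA, fewer cells of a type and less RNA per cell cannot be told apart. The part of rare differentiated cells in the lower contractile and mesodermal genes was not tested.

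Detection itself gave 189 genes (1.21%) found on both dox-plus and neither dox-minus array, 26 of them called, and 141 genes (0.901%) found the other way, 19 of them called. Besides those above, the dox-plus cells had COX7A1, a mitochondrial cytochrome oxidase subunit of muscle, at 7.17 and 6.99, against 5.58 and 5.46 in dox-minus cells, at least 2.65-fold higher (adjusted p = 0.0011). PSMD5, a proteasome assembly chaperone, had 6.85 and 6.69 in dox-plus cells, against 5.24 and 5.03 in dox-minus cells, at least 2.14-fold higher (adjusted p = 0.000998). ZNF717, a KRAB zinc finger gene, was at least 1.62-fold higher (adjusted p = 0.000624). PARD6B, a cell polarity protein, had 5.24 and 5.14 in dox-plus cells, against 6.53 and 6.50 in dox-minus cells, at least 1.84-fold lower (adjusted p = 0.00274). These 4 were called whichever day 4 array was left out. AMH, the anti-Müllerian hormone, was also detected on the dox-plus arrays alone, at least 2.97-fold higher, but its adjusted p was 0.0598; for HMX2, a homeobox factor, these values were 2.15-fold and 0.061.

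Further genes of large change are less well characterised or share sequence. ABHD12B, of the alpha/beta hydrolase family, was lower by 1.93 on the log2 scale, while its other kept probes gave 0.06 and -2.60. TAF8, a subunit of the general transcription factor TFIID, was lower by 1.81 on the log2 scale, with -0.52 by its other kept probe, and SNORD12C, a small nucleolar RNA, was higher by 1.67 ± 0.20 (adjusted p = 0.00164). The entries LSP1P5 at -1.77 and LOC100133583 at -1.74 were called whichever day 4 array was left out, as was SNORD12C. MIR1974 at -2.21, RPS15AP40 at -1.60, CSAG3 at -1.47 and TAF8 were called only without dox-plus array 2 among those fits, MEDAG at -1.43 in none, and ABHD12B, FLJ30428 at 1.61 and FAR2P1 at 1.54 only without a dox-plus array. Pseudogene, LOC and multigene family entries among these are reported as uncertain.

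Over the 300 called genes, the day 4 difference was often not that of day 16. Of the 207 genes higher in dox-plus cells at day 4, 16 were called higher and 31 called lower at day 16, and 160 were not called, against a background at day 16 of 6.08% called higher and 7.62% called lower. Of the 93 lower genes, 29 were called higher and 12 called lower, and 52 were not called. The difference of the effects was called for 82 of the 207 and 61 of the 93 genes, against 7.85% of all genes tested. These genes were picked by their day 4 effect, which is a term of that difference. A share above that of all genes was thus built in and says nothing about day 16.

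Genes on chromosome X held more calls than autosomal ones; this grouping was chosen after the values were seen. Of 534 tested X-linked genes 23 (4.31%) were called higher and 9 (1.69%) lower, against 1.09% and 0.557% of 13646 autosomal genes. The median fold change over the X-linked genes was close to 0, as it was over the autosomal genes. Higher ones included XIAP, an inhibitor of caspases, at 1.43, EGFL6, a secreted EGF-like protein, at 1.23, and HPRT1, a purine salvage enzyme, at 0.99. Lower ones included, beside TMSB15A, SAT1, a polyamine acetyltransferase, at -1.06. Of the 23 higher genes, 14 were called lower and 1 higher at day 16, and 20 had the difference of the effects called. Of 149 autosomal genes called higher, 16 were called lower and 11 higher at day 16, and 51 had the difference called. In both sets the day 4 effect that picked the genes is a term of that difference. Without single day 4 arrays, 1 to 16 X-linked genes were called, in place of 32: 4 and 16 without dox-plus array 1 and array 2, and 2 and 1 without dox-minus array 1 and array 2.

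**Figure D4:**
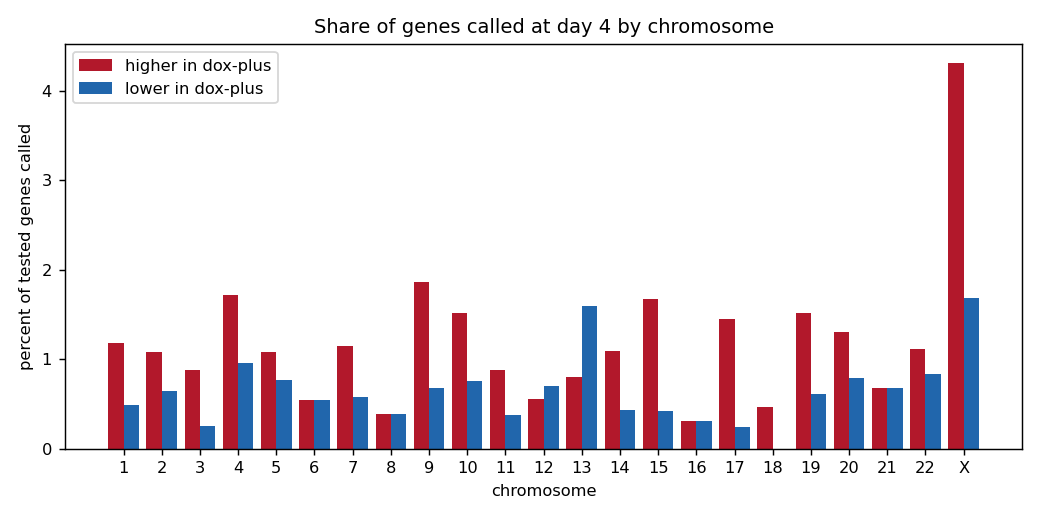
Bars give the percent of tested genes on each chromosome called higher (red) and lower (blue) in dox-plus cells at day 4. Chromosome X has the tallest bars of both colours, at 4.31% higher and 1.69% lower.

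The other kept probes of called genes gave smaller differences for bright genes called higher; this was looked at after the values were seen. Among 41 such genes with a dox-minus level of the tested probe from 9, the other probes had the same sign in 34 and reached at least 0.5 of the tested change in 11, with medians of 1.18 for the tested and 0.29 for the other probes. Among 29 genes called higher with a level under 9, 20 reached that share. For genes called lower it was 6 of 8 bright and 12 of 18 dim genes. All these genes were picked by the call of the tested probe, the brightest kept one. Smaller differences by the other probes were therefore partly built in. The 96 bright genes called higher also differed between the replicates of other groups: array 1 minus array 2 of the dox-minus day 16 cells had a median of 0.38 over them, positive in 90 of 96, against 0.08 over all 5826 bright genes, positive in 3310. The same median was -0.435 in shLHX2 cells and -0.20 in dox-plus day 16 cells, against -0.02 and -0.05 over all bright genes. HINT3, a nucleotide hydrolase family member called higher by 1.69, had -0.25 by its other probe, and was not called without dox-minus array 1. BMS1P1, LOC728903 and LOC100128288, pseudogene or uncharacterised entries at 1.61, 1.65 and 1.56, belong to the bright genes called higher, and each was called only without dox-plus array 2 among the fits that left out a day 4 array. The part of single probes in these calls was not tested further.

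**Figure D5:**
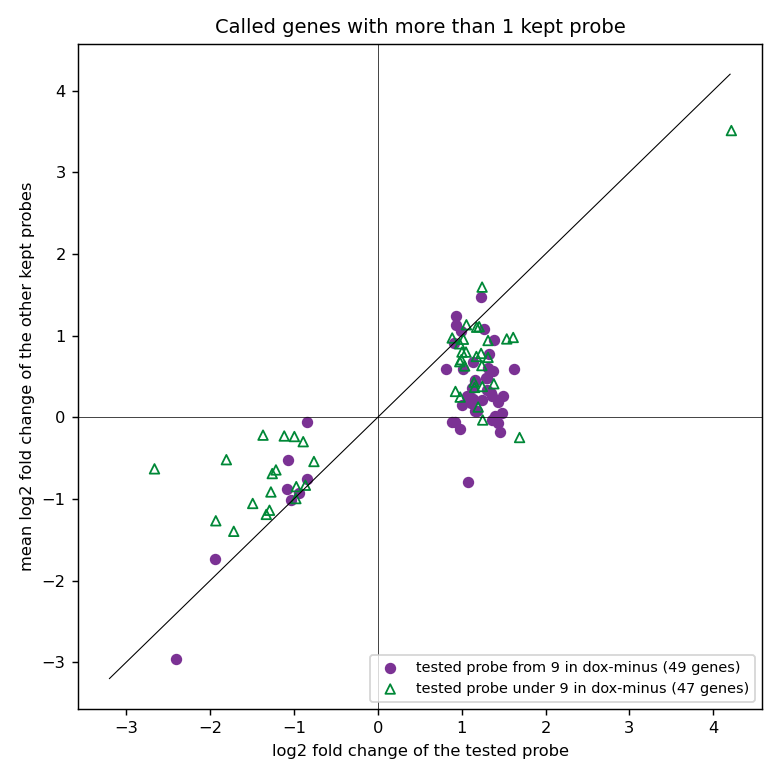
For the 96 called genes with more than 1 kept probe, the log2 fold change of the tested probe (x axis) is plotted against the mean of the other kept probes (y axis); the diagonal marks equality. Filled circles are genes whose tested probe was at 9 or more in dox-minus cells and open triangles dimmer ones; many circles on the right lie well below the line.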

How the data were processed

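Total RNA of H9 cultures was measured on Illumina bead arrays, 1 culture an array, from biotin-labelled cRNA. Groups come from the sample labels. Per the file headers, the authors' deposited files give each probe's mean bead intensity and detection p-value; scanner software, background treatment and genome build are not given in the sources used here. Intensities of all 12 arrays were background-corrected (neqc of limma 3.58.1 in R 4.3.3, control levels inferred from detection p-values, offset 16), quantile-normalised and put on the log2 scale. A filter kept 21526 of 47227 probes, those with both arrays of some group at a detection p under 0.01. Symbols were updated by Entrez identifier for 35670 probes; 8287 kept the name in the file and 3270 had none. Each of 15649 genes was represented by its brightest kept probe. One limma fit of all 12 arrays, a mean per group, with 6 residual degrees of freedom, gave dox-plus minus dox-minus at day 4 and its difference from day 16, with Benjamini-Hochberg adjustment over all genes and a threshold of 0.05. Where a group was detected on no array, the fold is given as a lower bound, against the higher of the probe's own signal and the lowest detected signal of each array. The number of arrays limits the precision.

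The members, gene lists and tests were chosen with earlier results of these data known. Genes named are LHX2, PAX6, the 20 most raised and the 20 most lowered called genes, up to 6 called members of each list or its largest member where none was called, and the 10 genes of largest change detected in 1 day 4 group only, each way; others are said to be chosen later or complete a list. One gene that this rule names is not reported here; it stays in every test and count. Alternatives changed the threshold, scaling, background, offset, filter, probe rule, spread or replicate block, or left out an array.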

Additional observations from a re-analysis of the deposited data

Results flagged for a closer look

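The dox effect at day 4 differed from that at day 16 by the test of the difference itself in 1228 genes (limma, adjusted p under 0.05). The values below are the day 4 minus the day 16 log2 fold change, each dox-plus over dox-minus, for the named genes among them. The difference was positive, with 5.94 for NNAT, 5.20 for SLC35E3, 4.37 for HEY2, 4.03 for CALCB, 3.44 for ZNF717, 3.40 for NPY, 3.22 for PSMD5, 2.78 for MT1G and 2.75 for HOXB6. Further positive differences were 2.62 for MT1H, 2.62 for LEFTY1, 2.42 for LEFTY2, 2.18 for DDIT3, 2.13 for COX7A1, 2.12 for FOXA2, 2.10 for NODAL, 2.02 for BMP2 and 2.00 for HMX2. Smaller positive differences were 1.94 for VWF, 1.93 for FLJ30428, 1.92 for FAR2P1, 1.90 for SNORD12C, 1.84 for CLOCK, 1.75 for CDX4, 1.75 for COL4A5, 1.59 for CER1 and 1.52 for FGF13. The least of the positive ones were 1.40 for BMS1P1, 1.35 for ONECUT1, 1.24 for HINT3, 1.06 for ACTC1 and 1.05 for TEK. It was negative, with -0.93 for PARD6B, -1.29 for MRPL3, -1.41 for LOC100133583, -1.53 for RPS15AP40, -1.61 for LSP1P5, -1.66 for NKX2-5, -1.86 for ABHD12B and -2.39 for MIR1974. Further negative differences were -2.40 for CHCHD2P8, -2.53 for CSAG3, -2.72 for NKX3-2, -2.77 for CHCHD2P6, -2.85 for CHCHD2P2, -2.89 for TBX1, -3.07 for DLX5 and -3.13 for CHCHD2. The most negative were -3.23 for CHCHD2P9, -3.88 for OLIG2, -4.84 for NLRP2, -6.27 for TRIM4, -6.55 for IAH1, -6.58 for ZNF558, -8.93 for H19 and -9.21 for TMSB15A. HEY2, HOXB6, DDIT3, FOXA2, HMX2 and MRPL3 were not called at day 4 itself. NODAL, LEFTY1, CDX4, ONECUT1 and COX7A1 were detected on no day 16 array. For them the difference mostly restates that of day 4.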

How the results depend on the processing

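The count of 300 genes called at day 4 became 28 to 142 when 1 day 4 array was left out, 51 at an adjusted p under 0.01 and 61 when only the 4 day 4 arrays were fitted. Where an array is left out, the lone array's spread is taken to be that of the other groups. For the difference of dox effects between day 4 and day 16, the count of 1228 genes became 475 at an adjusted p under 0.01 and ran from 583 to 2133 when 1 array was left out. Under the other 10 alternatives for the day 4 count, it ran from 215 to 419. The share of higher calls, 69%, was 87.1% with median scaling, which moved the median fold change of all genes to 0.15; it was 51% at an adjusted p under 0.01, 55.7% with the 4 arrays alone, and 35.7% to 57% with 1 array left out. Without background correction 332 genes were called, as with the deposited series value table, which holds the same values for the day 4 arrays. Of the 61 named genes called, 33 were called under each of 12 alternatives that keep all day 4 arrays. PAX6, not called under either, reversed to -0.0814 with cyclic loess, from 0.19. The deviations of same-numbered arrays correlated at 0.33 in the day 4 groups, -0.58 in the day 16 groups and 0.07 in the knockdown groups. The numbers were therefore not taken as pairs. Across the days the correlation was 0.64 for dox-plus day 4 with dox-minus day 16, and -0.42 for dox-plus day 4 with dox-plus day 16. Deviations were thus partly shared between groups, which the main fit does not model. With the replicate number as a block, 215 genes were called at day 4 and 1099 for the difference. TBX1, TEK, DLX5, BMP2, IL17RD and ZMAT3 were among the named calls lost under the block. The detection limit bounds the fold of genes undetected in 1 group.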
